A study of Mus musculus with 6 samples.

Results

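The 9 genes described here encode the enzymes that make and break down polyamines and the proteins that control the first of them. They were chosen by symbol, as the rows of the deposited count table named Odc1, Amd1, Srm, Sms, Oaz1, Oaz2, Azin1, Sat1 and Smox. All 9 were found among 45808 rows. Polyadenylated RNA was read from 6 samples of T cells from the spleen of C57BL/6 mice aged 2 months, 3 labelled wild type and 3 labelled Drp1-/- (KO). Drp1 is the GTPase that divides mitochondria, and its gene is Dnm1l. All 6 samples had been activated in vitro with antibodies to CD3 and CD28 and given IL-2. The labels name no Cre driver and do not say in which cells Dnm1l was deleted, whether animals were pooled, or whether same-group libraries came from different mice or cultures. The p-values therefore measure the spread between these libraries, which may be technical.

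Putrescine, spermidine and spermine are small, positively charged molecules that bind RNA and DNA and that growing cells need. Ornithine decarboxylase (Odc1) makes putrescine from ornithine. Spermidine synthase (Srm) and then spermine synthase (Sms) add aminopropyl groups, which come from S-adenosylmethionine after its decarboxylation by Amd1. Spermidine/spermine acetyltransferase (Sat1) tags polyamines for export or oxidation, and spermine oxidase (Smox) turns spermine back to spermidine. Antizymes (Oaz1, Oaz2) bind ornithine decarboxylase and send it to the proteasome, and antizyme inhibitor (Azin1), a relative of the decarboxylase without its activity, takes antizyme away from it. Resting T cells make little polyamine, and activation through Myc turns the synthesis on.

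Antizyme is controlled mainly in translation, which a count of reads does not measure. The ribosome meets a stop codon early in the antizyme message and, when polyamines are abundant, shifts its reading frame there instead of stopping. The 2 sites are shown because they are the switch by which polyamines raise antizyme protein from an unchanged message. Each is a run of 30 bases, 5′ to 3′ on the plus strand, read from GENCODE transcripts, with the last sense codon and the stop codon in capitals.
Oaz1: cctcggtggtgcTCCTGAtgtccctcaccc
Oaz2: cctctgtggtgcTCCTGAtgcccctcaccc
The Oaz1 run lies at chr10:80828280-80828309 and the Oaz2 run at chr9:65686257-65686286 (mm10), both in coding exons. The stop codon was in frame with the annotated start in both, after 68 codons in Oaz1 and 32 codons in Oaz2. The runs were identical at 28 of 30 positions and differed by G5T and T21C (the Oaz1 base first, positions counted from 1 at the 5′ end).

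The title of the study concerns metabolism that depends on cMyc, so the letters CACGTG, the E-box that Myc binds with its partner Max, were looked for. Promoter windows from RefSeq (GRCm38.p6) reached from 250 bases before to 50 bases after an annotated start. They were found for 7 of the 9 genes, in 8 windows. These starts can differ from those of the genes printed below, and the Oaz2 window (chr9:65676298-65676597) lies inside its gene. The motif, which reads the same on both strands, was in 1 of these 8 windows, against 7.15% of 32851 windows of the same length in that table. That window belongs to Sms, with the motif 196 bases before the start. Srm and Azin1 had no window, so their promoters were not searched. A second place was seen only after the search was widened to GENCODE transcripts: a Srm transcript that keeps an intron begins with 2 E-boxes. These lie 420 and 462 bases after the start of the gene, in intron 1 of the coding transcript. Introns of the other genes were not searched, so E-boxes there would have been missed. Among 141515 transcripts, 0.914% had an E-box in their first 60 bases and 11 had 2 or more. The Srm stretch was picked for its E-boxes and begins inside an intron. These shares therefore do not measure how unusual it is. The capitals mark CACGTG in the 2 stretches, printed 5′ to 3′ on the strand of the gene.
Sms: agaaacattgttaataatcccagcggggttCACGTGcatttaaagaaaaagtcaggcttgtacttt
Srm: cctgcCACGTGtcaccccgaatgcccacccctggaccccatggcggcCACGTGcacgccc
The Sms stretch is chrX:157492448-157492513, minus strand, and the Srm stretch is chr4:148591918-148591977, plus strand (mm10). A match describes letters only, and no binding was measured here.

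Total counts ran from 24738017 to 34730475 per library, and the 9 genes held 0.0966% to 0.0987% of counts in wild type and 0.113% to 0.116% in KO. Dnm1l stood at 116.6 to 123.1 CPM (library counts scaled by total and composition) in the wild-type libraries and at 92.56 to 100.6 CPM in the KO libraries. Over all genes, wild-type replicate 1 was unlike its group: chi-square per gene was 12.2 and 13.6 against replicates 2 and 3, and 2.56 between those 2. Values without it are therefore given below. The defining T cell genes Cd3e, Cd3d and Trac were abundant, and the 10 T cell markers summed to 3532 to 3584 CPM (wild type) and 2918 to 3026 CPM (KO), with 8 of 10 lower in KO. The 4 gamma-delta T cell genes were all higher in KO and went from a sum of 41.47 to 48.09 CPM to one of 98.66 to 117.8 CPM. The 6 B cell genes summed to 475.2 to 484.2 and 414.6 to 433.7 CPM (1 higher, 1 lower). The 8 myeloid genes summed to 28.4 to 31.81 and 22.4 to 25.66 CPM (only 3 tested, 1 higher and 2 lower, S100a8 at 0). The 6 mast cell and basophil genes summed to 55.99 to 64.26 and 32.69 to 35.97 CPM (5 higher; Kit, which makes up most of the sum, lower). The 5 platelet genes summed to 7.621 to 9.899 and 20.5 to 23.95 CPM (4 tested, all higher). The 6 erythroid genes summed to 0.3832 to 0.8053 and 1.315 to 1.883 CPM (only 1 tested, higher, Hba-a2 at 0). The part of these other cells in the results below was not tested. In bulk RNA, fewer cells of a type and less RNA per cell cannot be told apart. Higher and lower in these lists are calls of the test described below, which called 26.7% of 14209 tested genes higher and 26.1% lower.

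All 4 synthesis genes (Odc1, Amd1, Srm, Sms) rose in the KO samples, and Sat1 and Smox, the 2 breakdown genes among the 9, fell. Of the control genes, Oaz1 and Azin1 rose slightly and Oaz2, the scarcer antizyme, fell slightly. Srm, which nearly doubled, and Smox, which nearly halved, moved most. By the edgeR quasi-likelihood test with a Benjamini-Hochberg adjusted p under 0.05, 6 of the 9 genes were higher and 3 lower, and the 2 groups did not overlap in any of them. That count has to be read against a broad difference between the groups: 52.9% of 14209 tested genes were called, 26.7% as higher and 26.1% as lower, and the groups did not overlap in 63.3% (KO above in 32.5%, below in 30.8%). The median log2 fold change of the 9 genes was 0.23, and that of all tested genes 0.01. Scaled by library totals only, 62.0% of all calls were higher, against 50.6%, and 6 of the 9 genes stayed higher and 2 lower.

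**Figure D1:**
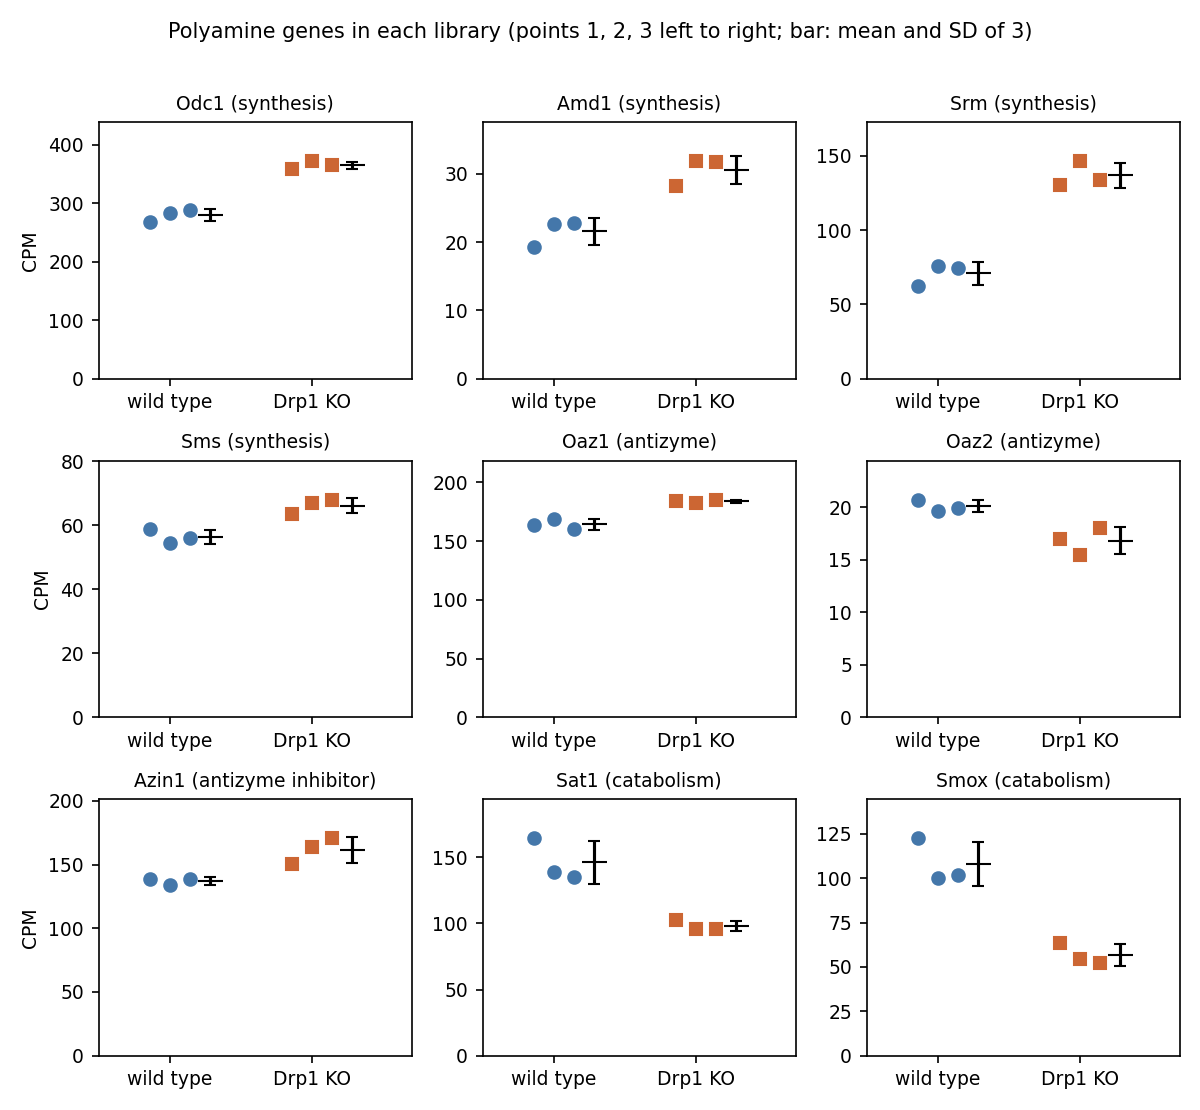
CPM (y axis, from 0) of each of the 9 genes by genotype (x axis); circles are wild-type and squares KO libraries, with replicates 1, 2 and 3 from left to right, and bars give mean and SD of 3 libraries. No gene has overlapping groups; the means of Srm are 71.0 and 136.7 CPM, and those of Smox 108.3 and 56.8 CPM.

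Odc1, the entry enzyme (chromosome 12, 17544794 to 17551505, mm10), was at 267.3, 283.7 and 288.2 CPM in wild-type replicates 1, 2 and 3 and at 358.4, 371.1 and 364.2 CPM in KO replicates 1, 2 and 3. The lowest KO library exceeded the highest wild-type library by 70.2 CPM, several times the spread within either group. Its mean went from 279.7 ± 11.0 to 364.6 ± 6.33 CPM (SD, n = 3 each), a log2 fold change of 0.38 ± 0.05 (SE; edgeR quasi-likelihood adjusted p = 0.000128). Odc1 had the most counts of the 9 genes, 6277 to 12806 per library, so that counting error was about 1% of its value. Its spread between KO libraries was 1.74% of the mean and that between wild-type libraries 3.94%. A small nucleolar RNA gene lies inside Odc1 and had 0.133% as many counts.

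Amd1, the decarboxylase that prepares the aminopropyl donor (chromosome 10, 40287458 to 40302186), was among the scarcest, with 453 to 1061 counts per library. Its values were 19.29, 22.62 and 22.78 CPM in wild type and 28.16, 31.78 and 31.70 CPM in KO. Replicate 1 was the lowest library in both groups, and the groups stood 5.38 CPM apart. The log2 fold change was 0.50 ± 0.08 (SE; edgeR quasi-likelihood adjusted p = 0.000627), a level 41.2% higher, and 0.43 without wild-type replicate 1. The near-identical gene Amd2 had 0 to 5 counts per library and 5 further Amd pseudogenes 0 or 1. Reads that these copies share with Amd1 may not be separated.

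Srm, which makes spermidine (chromosome 4, 148591503 to 148594993), had the largest rise of the 9 genes. It was at 62.12, 76.17 and 74.77 CPM in wild type and at 130.2, 146.1 and 133.7 CPM in KO. The groups stood 54.1 CPM apart, several times the spread within either. Of all tested genes, 2.88% rose more than Srm did (log2 fold change 0.94 ± 0.08 SE, 0.85 without wild-type replicate 1; edgeR quasi-likelihood adjusted p = 3.25e-05). Sms, which makes spermine from spermidine (chromosome X, 157443855 to 157492287), rose far less. Its values were 58.80, 54.33 and 55.93 CPM in wild type and 63.39, 66.79 and 67.92 CPM in KO, with a gap of 4.60 CPM between the groups. The log2 fold change of Sms was 0.23 ± 0.05 (SE; edgeR quasi-likelihood adjusted p = 0.00513). For this gene wild-type replicate 1 lay on the side of the KO libraries, and without it the log2 fold change was 0.26.

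The 2 aminopropyl transferases were compared within each library, where depth and scaling cancel. In wild type there were 1.06, 1.40 and 1.34 Srm counts per Sms count, and in KO 2.05, 2.19 and 1.97. The ratio was higher in every KO library than in any wild-type library, and its mean on the log2 scale was 0.33 ± 0.22 in wild type and 1.05 ± 0.08 in KO (SD, n = 3 each), a difference of 0.72. The 2-sided exact permutation test gave p = 0.1, the smallest that 3 against 3 libraries can reach, and 0.125 adjusted over the 5 ratios computed. Without wild-type replicate 1, which had the lowest Srm, the difference was 0.60.

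Among the control genes, Oaz1 (chromosome 10, 80826656 to 80829290), the main antizyme, was at 163.4, 169.0 and 160.3 CPM in wild type and at 183.8, 182.6 and 185.2 CPM in KO. The spread between the KO libraries was 0.702% (SD over the mean), below the counting error of 1.28%. The log2 fold change of Oaz1 was 0.16 ± 0.04 (SE; edgeR quasi-likelihood adjusted p = 0.0101), a level 11.95% higher. The pseudogene Oaz1-ps had 37 to 69 counts per library against 3837 to 6566 for Oaz1, and Oaz2-ps had 1 to 5. Oaz2 (chromosome 9, 65668001 to 65690300), the antizyme whose frameshift site is printed beside that of Oaz1, was at 20.69, 19.60 and 19.95 CPM in wild type and at 16.93, 15.47 and 18.02 CPM in KO. Its groups stood only 1.58 CPM apart, and counting error alone was 4.20% of its level in wild type, more than the spread of 2.78% between those libraries. The log2 fold change of Oaz2 was -0.25 ± 0.07 (SE; edgeR quasi-likelihood adjusted p = 0.0148). Oaz2 is the gene of the 9 whose call was lost in an alternative: without KO replicate 2, the lowest library, the adjusted p was 0.07015, and scaled by library totals only it was 0.06956, with log2 fold changes of -0.20 and -0.18.

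Oaz1 gave nearly all antizyme counts, 7.90, 8.62 and 8.04 for each Oaz2 count in wild type and 10.85, 11.80 and 10.28 in KO. The log2 ratio was 0.42 higher in KO, with no overlap (exact permutation p = 0.1, adjusted 0.125). Oaz1 rose and Oaz2 fell without overlap of the groups, so the separation of their ratio and its exact p followed from those values. Azin1, the antizyme inhibitor (chromosome 15, 38487427 to 38519266), was at 138.8, 133.9 and 138.8 CPM in wild type and at 150.5, 163.9 and 170.7 CPM in KO. Its KO libraries differed from each other by more (6.36% SD over the mean) than its wild-type libraries (2.05%). The log2 fold change of Azin1 was 0.24 ± 0.05 (SE; edgeR quasi-likelihood adjusted p = 0.00465). Set against the antizymes, Azin1 did not separate the groups: there were 0.754, 0.710 and 0.770 Azin1 counts per antizyme count in wild type and 0.750, 0.828 and 0.840 in KO. These groups overlapped, since KO replicate 1 lay within the wild-type range, and the difference of 0.11 on the log2 scale had an exact permutation p of 0.3 (0.3 adjusted).

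Odc1 was also set against its antizymes. For each count of Oaz1 and Oaz2 together there were 1.452, 1.504 and 1.599 Odc1 counts in wild type and 1.79, 1.87 and 1.79 in KO. All KO libraries were above all wild-type libraries, and the mean log2 ratio went from 0.60 ± 0.07 to 0.86 ± 0.04 (SD, n = 3 each). The difference of 0.26, or 1.20-fold, had an exact permutation p of 0.1 (0.125 adjusted over the 5 ratios). These are ratios of messages, and neither antizyme protein nor decarboxylase activity was measured.

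**Figure D2:**
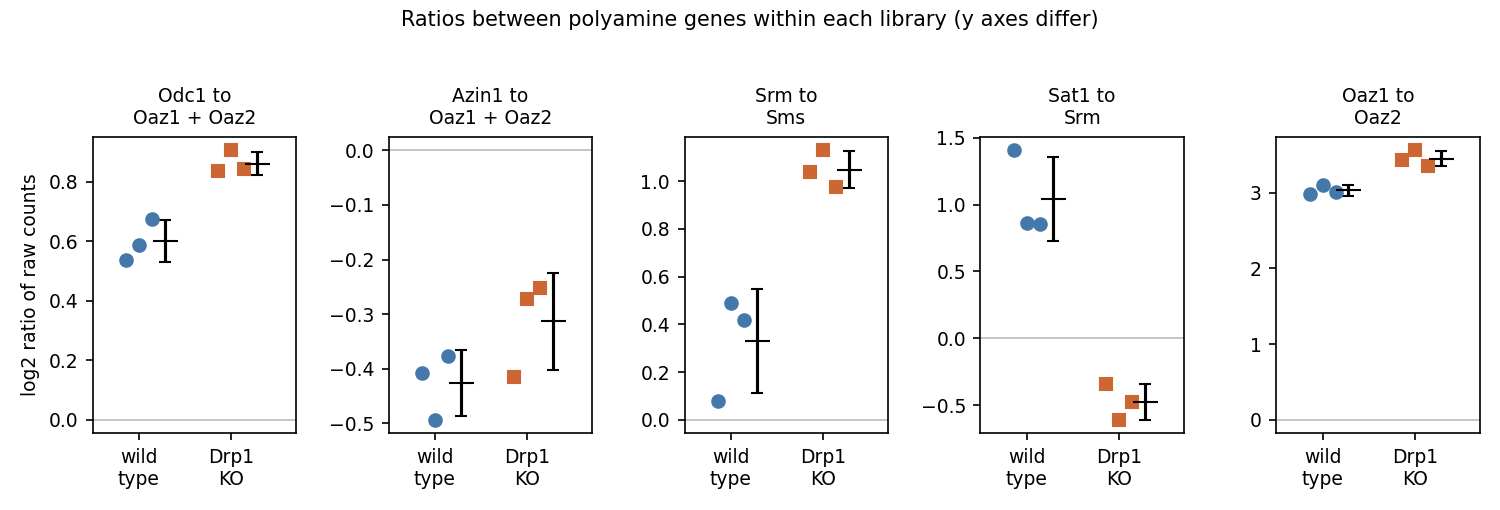
Log2 ratio of raw counts between polyamine genes (y axes, which differ between panels) in each library by genotype (x axis); circles are wild-type and squares KO libraries, bars give mean and SD of 3 libraries, and grey lines mark equal counts. Only Azin1 to antizymes has overlapping groups, and Sat1 to Srm lies above 0.85 in wild type and below 0 in KO.

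Sat1 and Smox, which act in breakdown, fell. Sat1, the acetyltransferase (chromosome X, 155213132 to 155216449), was at 164.4, 138.8 and 135.1 CPM in wild type and at 102.7, 95.96 and 96.10 CPM in KO. Wild-type replicate 1 was the highest library by far, yet the lowest wild-type value was still 32.5 CPM above the highest KO value. The log2 fold change of Sat1 was -0.57 ± 0.07 (SE; edgeR quasi-likelihood adjusted p = 0.00019), and -0.48 without wild-type replicate 1. Smox, the spermine oxidase (chromosome 2, 131491496 to 131525922), was at 122.6, 100.3 and 102.1 CPM in the wild-type libraries and 63.62, 54.60 and 52.02 CPM in the KO libraries. Replicate 1 was the highest library in both groups, and the groups stood 36.7 CPM apart. Smox fell by 47.5% (log2 fold change -0.93 ± 0.09 SE, -0.83 without wild-type replicate 1; edgeR quasi-likelihood adjusted p = 6.00e-05). Of all tested genes, 2.63% fell more than Smox and 8.87% more than Sat1.

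Sms and Sat1, which moved in opposite directions, lie on the X chromosome, and a marker of X chromosome number differed with genotype. Xist, made from the inactive X chromosome, had 0, 3 and 1 counts in the wild-type libraries and 16862, 12950 and 14744 in the KO libraries. Counts of the Y-linked gene Ddx3y were present throughout, with 106.0 to 153.4 CPM (wild type) and 69.72 to 77.24 CPM (KO). Sex is not among the labels used here, so its part in the values of these genes and genotype cannot be told apart.

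Sat1 and Srm changed order in counts within a library. Wild-type libraries held 2.65, 1.82 and 1.81 Sat1 counts per Srm count, and KO libraries 0.789, 0.657 and 0.719. The groups were far apart relative to their spread: the mean log2 ratio was 1.04 ± 0.31 in wild type and -0.48 ± 0.13 in KO (SD, n = 3 each), 2.86-fold lower in KO. The exact permutation p was again 0.1 (0.125 adjusted over the 5 ratios). This separation and its p were fixed in advance, since Srm rose and Sat1 fell with no overlap, and add nothing to those 2 results. Without wild-type replicate 1 the difference was -1.34 in place of -1.52 on the log2 scale.

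Levels of different genes were compared per length, as TPM, a transcript abundance scaled to a fixed sum per library, from the counts and the summed exon length of each gene. In wild type the order was Odc1 (268 ± 16.2 TPM), Oaz1 (209.5 ± 6.78), Sat1 (172 ± 14.9), Srm (145 ± 18.5), Smox (90.6 ± 8.44), Azin1 (71.5 ± 1.90), Sms (30.6 ± 0.803), Oaz2 (21.9 ± 0.351) and Amd1 (19.9 ± 2.21; SD, n = 3 each). Neighbours in this order did not overlap in any pair. In KO, Srm (293.5 ± 17.2 TPM) stood above Oaz1 (247 ± 2.72) and Sat1 (122 ± 4.71), and Azin1 (88.8 ± 5.84) above Smox (50.04 ± 5.30). Amd1 (29.6 ± 2.03 TPM) likewise stood above Oaz2 (19.3 ± 1.54) in KO. The choice of length mattered at the top: with the longest coding transcript, a length chosen after seeing the data, Oaz1 led Odc1 (336 ± 11.1 against 278 ± 17.5 TPM in wild type), and the pairs Odc1 and Sat1, and Srm and Smox, overlapped in wild type. In KO that length put Oaz1 (399.6 ± 4.61 TPM) above Srm (237.8 ± 14.0), the reverse of their order by exon length, and Amd1 and Oaz2 overlapped. With either length Sat1 was above Srm in all 3 wild-type libraries and below it in all 3 KO libraries, and Smox likewise changed places with Azin1. By exon length, Odc1 was above 96.3% of tested genes in wild type and Amd1 above 51.3%.

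As shares of the summed TPM of the 9 genes, the 4 synthesis genes made up 45.0% ± 2.73 in wild type and 58.0% ± 1.17 in KO, and the 2 breakdown genes 25.5% ± 2.75 and 13.7% ± 0.979 (SD, n = 3 each). Most of the gain was Srm, from 14.1% ± 1.56 to 23.4% ± 1.05, with Odc1 adding 3.24 percentage points. Sms kept nearly the same share, 2.97% ± 0.117 and 3.01% ± 0.0870. The antizymes held 22.5% ± 0.435 and 21.2% ± 0.535. With the longest coding transcript as the length, synthesis went from 35.6% to 47.7% and breakdown from 30.5% to 17.7%, whereas the antizyme share turned from a difference of -1.28 to one of 0.294 percentage points. The summed TPM itself was 1007 to 1042 in wild type and 1236 to 1272 in KO.

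**Figure D3:**
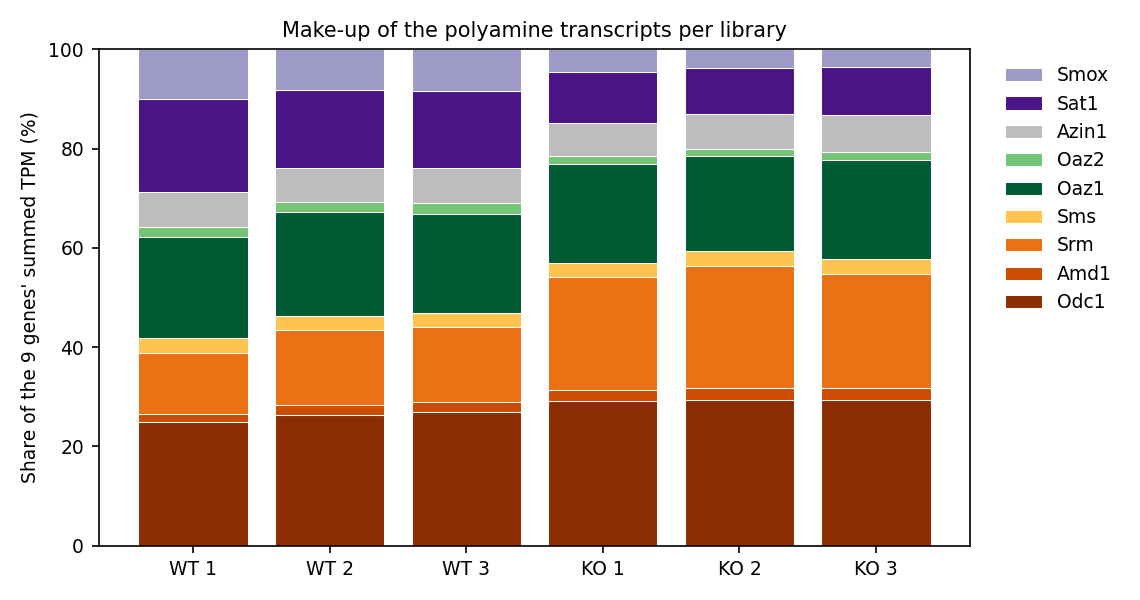
Share of the 9 genes' summed TPM (y axis, percent) taken by each gene in each library (x axis; WT is wild type), with the 4 synthesis genes at the bottom, the antizymes and Azin1 in the middle and the 2 breakdown genes at the top. Synthesis averages 45.0% in wild type and 58.0% in KO, and breakdown 25.5% and 13.7%.

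Libraries of a group also differed in a shared way. Wild-type replicate 1 lay below the mean of replicates 2 and 3 for Srm (log2 difference -0.28), Amd1 (-0.23) and Odc1 (-0.10), and above it for Smox (0.28) and Sat1 (0.26). For these 5 genes, which had the largest fold changes, and for Oaz2, it was the wild-type library farthest from KO. For Sms, Azin1 and Oaz1 it was not. Within wild type the spread was 10.9% (SD over the mean) for Srm, 10.9% for Sat1 and 11.4% for Smox, several times their counting error of 1.56% to 2.22%. For Amd1 it was 9.14%, against a counting error of 4.03%. It was 2.05% to 4.02% for Odc1, Sms, Oaz1, Oaz2 and Azin1.

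Other genes of polyamine metabolism, from a list of 6, were scarce. Azin2, a second antizyme inhibitor, went from 4.40 to 6.66 CPM (log2 fold change 0.58 ± 0.15 SE) and Paox, the oxidase of acetylated polyamines, from 8.63 to 12.1 CPM (0.47 ± 0.12); both rose. Paox thus moved opposite to Sat1, which makes its substrates. Oaz3, the antizyme of the testis, had 0 to 3 counts per library and Sat2 0 to 6, and Satl1 and Aoc1 had 0 in all.

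The supply of substrates was read from 2 lists. Of 13 genes for arginine and ornithine supply, 9 could be tested, of which 4 rose, 0 fell and 5 did not pass (median log2 fold change 0.25). Slc25a15, the mitochondrial ornithine carrier (0.49 ± 0.08 SE on the log2 scale), Aldh18a1, which makes the precursor of proline and ornithine (0.29 ± 0.05), and Slc7a1, the arginine transporter (0.25 ± 0.05), had the smallest adjusted p-values. The arginases, which make ornithine in many tissues, were at the limit of detection, Arg1 at 0 to 4 and Arg2 at 2 to 5 counts per library. Of 14 genes of the methionine cycle and of methylthioadenosine salvage, 12 could be tested, of which 8 rose, 1 fell and 3 did not pass (median 0.33). Methylthioadenosine is the by-product of Srm and Sms. Mtap, the phosphorylase that clears it, went from 51.4 ± 3.08 to 83.6 ± 3.63 CPM (SD, n = 3 each; log2 fold change 0.70 ± 0.06 SE). All 5 tested salvage genes, Mtap, Mri1, Apip, Enoph1 and Adi1 (0.49 ± 0.07), rose. Mtr, methionine synthase, rose as well (0.72 ± 0.08). The pair that makes S-adenosylmethionine parted: the catalytic subunit Mat2a rose (0.82 ± 0.13) and the regulatory subunit Mat2b was the member that fell (-0.42 ± 0.07). Mat2a was lowest in wild-type replicate 1, at 72.0 CPM against 107.4 and 106.9 CPM in the other 2. The last pair and Mri1, Apip and Enoph1 were named after their values were seen.

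Spermidine is also the donor of hypusine, a modified lysine of the translation factor eIF5A. All 4 genes of that pathway rose: Eif5a from 637 ± 22.8 to 896 ± 50.4 CPM (SD, n = 3 each; log2 fold change 0.49 ± 0.05 SE), its paralog Eif5a2 (0.81 ± 0.10), and the enzymes Dhps (0.34 ± 0.06) and Dohh (0.35 ± 0.06). Eif5a has processed copies in the genome, so its reads may be shared. Of 10 genes for polyamine transport, 4 could be tested, and 1 rose, the pump Atp13a3 (0.27 ± 0.05). Atp13a2 (-0.03 ± 0.05), Slc3a2 (-0.01 ± 0.05) and Slc12a8 (-0.07 ± 0.13) did not pass. Adjusted p-values of the called genes in these 5 lists ran from 3.49e-05 (Mtap) to 0.0464 (Oat, ornithine aminotransferase) by the edgeR quasi-likelihood test. The share of tested genes called as higher, 26.7%, is the background for these counts. Myc itself went from 166.5 ± 30.5 to 234.2 ± 12.95 CPM (log2 fold change 0.49 ± 0.11 SE), with 131.6 CPM in wild-type replicate 1.

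**Figure D4:**
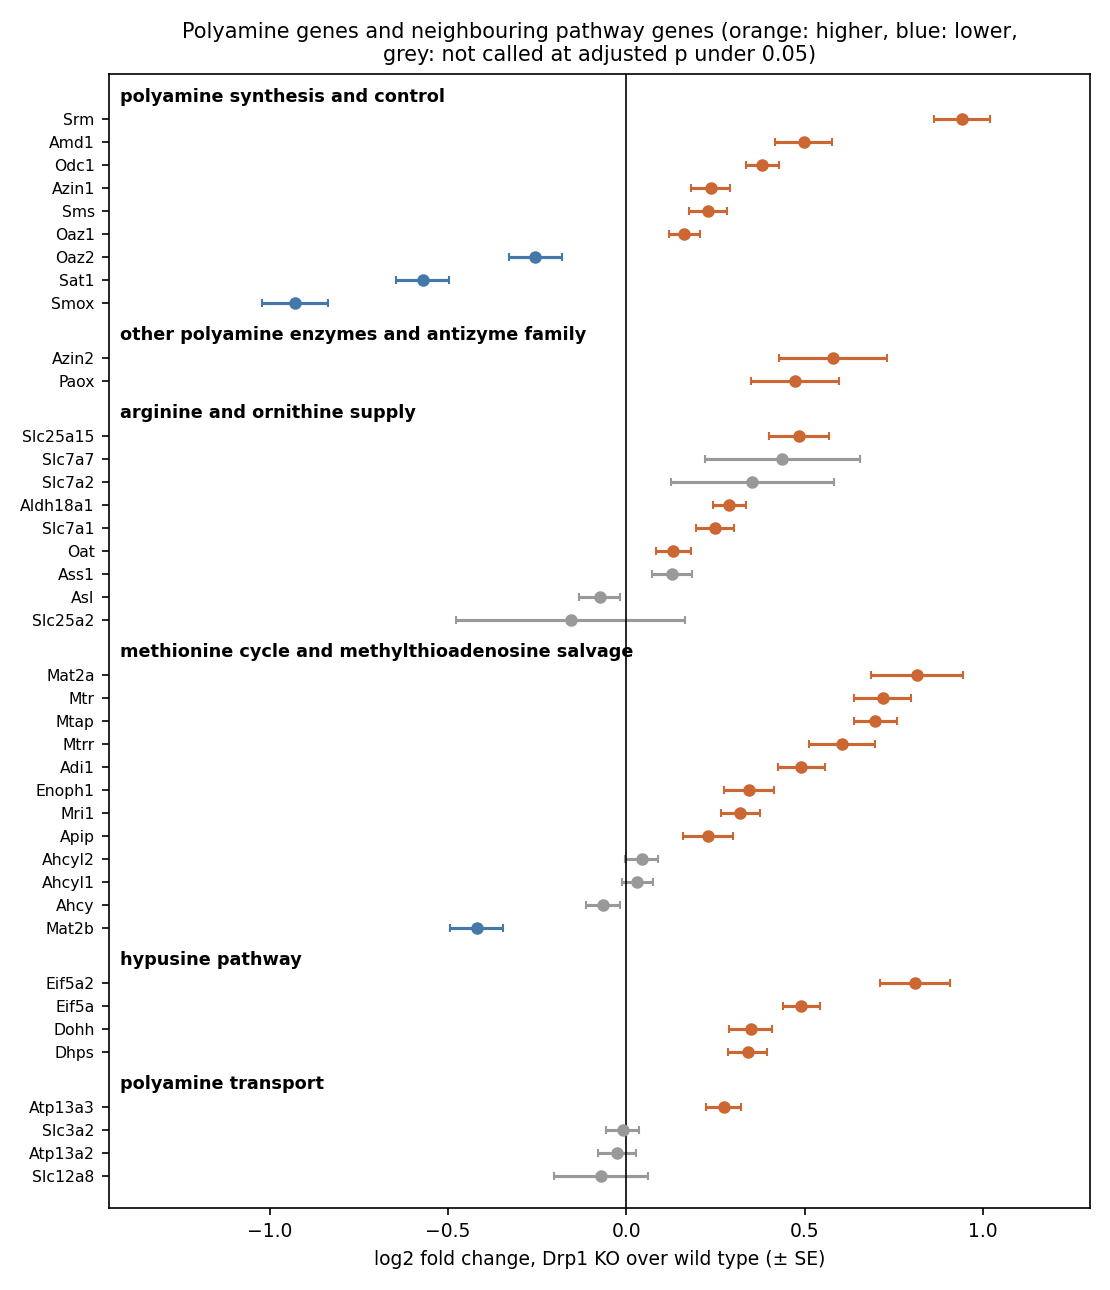
Log2 fold change, KO over wild type, with its SE (x axis), of the 9 genes and of the tested genes of 5 neighbouring lists (y axis); orange marks genes called higher, blue lower and grey not called at an edgeR adjusted p under 0.05. All 4 hypusine pathway genes lie to the right of 0, and Smox, Sat1, Mat2b and Oaz2 are the called genes to the left.

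Profiles over the 6 libraries were compared by the root mean square distance of centred log2 CPM, among 9526 other genes averaging 5 CPM or more. This is a description over 6 libraries that share the difference in genotype. The other polyamine genes number only 8, so a larger distance to the nearest of them is not a result about the pathway. Nearest to Srm were Nup93, a nuclear pore protein (distance 0.0262), Trub2, a pseudouridine synthase (0.0310), and Rrp9, a factor of ribosomal RNA processing (0.0328), and the nearest of the other polyamine genes was Amd1 (0.227). Nearest to Smox were Atg16l2 (0.0418), Dlg4 (0.0429) and Ip6k1, an inositol phosphate kinase (0.0476), and the nearest polyamine gene was Sat1 (0.191).

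**Figure D5:**
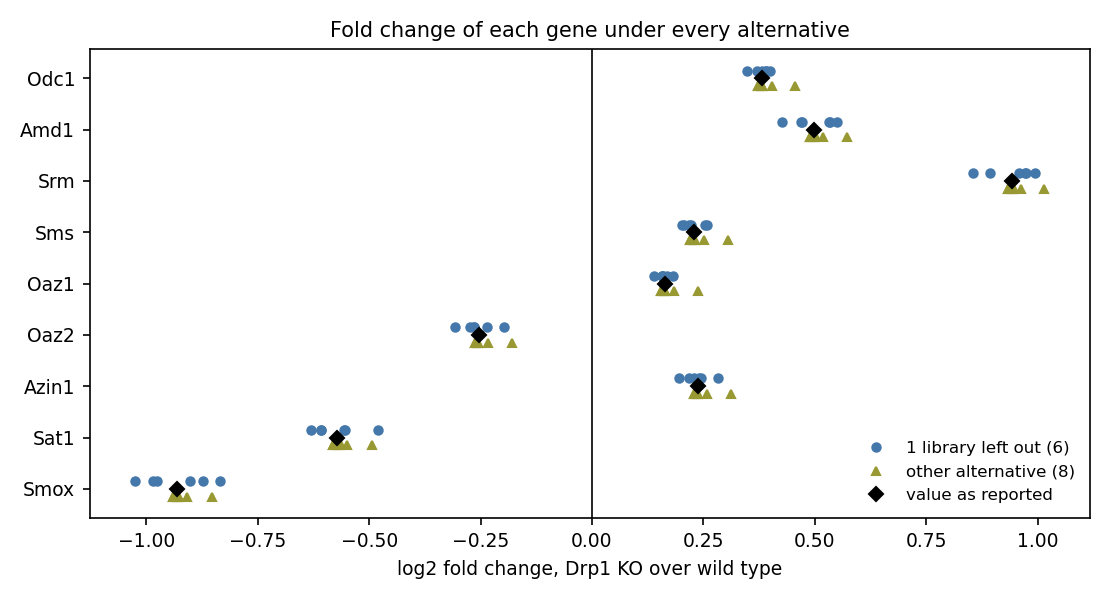
Log2 fold change, KO over wild type (x axis), of each of the 9 genes (y axis) as reported (diamonds), with 1 library left out (circles, 6 values) and under 8 other settings (triangles). No value crosses 0, and Srm ranges from 0.85 to 1.01 (log2).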

How the data were processed

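Raw counts per gene symbol, 1 column per library, were deposited by the authors. Tools listed, without roles, in the submitters' processing notes are Cufflinks, DESeq2 1.12, HTSeq 0.6.1, STAR 2.5.2 and FastQC, with mm10 as the build. Libraries came from a stranded poly(A) kit, per the labels' protocols. How strand was set in counting, and with which annotation, is not given in the sources used here. Overlapping genes and gene copies may therefore share reads. In 27 rows (0.241% of counts) a spreadsheet had turned the symbol into a date; they stayed in library totals.

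Counts were tested with edgeR 4.0.16 in R 4.3.3: filterByExpr (14209 genes, 99.9% of counts), TMM factors (0.949 to 1.03), the quasi-likelihood F test of genotype (KO over wild type) on all 6 libraries, Benjamini-Hochberg adjustment over all tested genes, threshold 0.05. CPM use the TMM factors. The SE is the log2 fold change divided by the square root of F. Ratios used raw counts and a 2-sided exact permutation test (scipy 1.17.1). The lowest depth makes 3 counts 0.121 CPM. Gene positions, lengths and transcript sequences are from GENCODE M21 (mm10), matched by symbol; 95.2% of tested genes had a length. Alternatives were DESeq2 size factors, upper quartile factors, library totals, DESeq2 1.42.0, limma-voom (limma 3.58.1), no filter, 1 CPM in 3 libraries, the replicate block, each library left out, 0.5 added to counts in ratios and, added after seeing the data, another gene length.

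The genes, lists and tests were chosen with earlier results of these data known. Named are the 9 genes, Dnm1l, Myc and Xist, all tested genes of lists with up to 4 tested, otherwise the 3 with the smallest adjusted p, copies of the 9 genes, and the 3 genes nearest in profile to the largest rise and fall. Outside this rule, and chosen after their values were seen, are Oat, Arg1, Arg2, Oaz3, Sat2, Satl1, Aoc1, Mat2a, Mat2b, Mri1, Apip, Enoph1, the Y-linked Ddx3y and the single cell type markers (Cd3e, Cd3d, Trac, Kit, S100a8, Hba-a2). The fit was tested on simulated data. It recovered 58.2% of log2 changes of 0.3, 71.2% of 0.6 and 98.4% of 1.0. Of 155 calls there, 8 were false. Far fewer genes were changed in that simulation than were called in the data, so it does not match their setting. The level of 1 marker gene is not reported here. Figures were drawn with matplotlib 3.10.9.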

Additional observations from a re-analysis of the deposited data

How the results depend on the processing

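Each of the 9 genes had 14 alternative settings. Of these 126 values 124 kept their direction and their side of the threshold, and none changed direction. The other 2 were those of Oaz2: -0.18 (log2) scaled by library totals only, and -0.20 without KO replicate 2, in a range of -0.31 to -0.20 with each library left out. The cause was not tested. Genes called lower among the 9 therefore numbered 2 or 3, and those called higher 6 in all 14 settings. Calls over the whole table numbered 5985 to 7534 with a library left out. Replicate numbers are shared between groups, but nothing in the labels says that they mark a pair, and same-numbered libraries deviated together only in part (correlations 0.174, 0.125 and 0.0112), and not every library correlated best with its own number (wild-type replicate 3 did so with KO replicate 2, 0.105). With the replicate block 7900 genes were called against 7513, 6 and 3 of the 9 as higher and lower. For the ratios the block was no check. The mean of the differences by replicate number equals the difference of group means by arithmetic. Of the 4 shares of summed TPM, that of the antizymes changed direction with the longest coding transcript as the length, to 0.294 percentage points. Depth limits Oaz2 and Amd1 most, with counting errors of 3.13% to 4.22%.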
